A study of Homo sapiens with 18 samples.

Results

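RBM14 and 8 other genes of the paraspeckle and of nuclear RNA bodies were followed in KBM7 cells, a human chronic myelogenous leukaemia line, after 5 h with 1 of 5 compounds or with the solvent DMSO. The 9 genes are RBM14, RBM4, SFPQ, NONO, PSPC1, DAZAP1 and HNRNPK, which code for RNA-binding proteins, and NEAT1 and MALAT1, which are long non-coding RNAs. They were taken by symbol from the 58051 gene entries of the count tables, and all 9 are among the 15055 genes that passed the filter on low counts. RBM14 was chosen by its measured log2 fold changes against DMSO, which have opposite signs under dCeMM-1 and dCeMM-4, so the values of all genes against DMSO under these compounds are given as a description without a test. Of the 6 groups of 3 libraries, 4 received dCeMM-1 (also labelled Hit4), dCeMM-2 (Hit1), dCeMM-3 (Hit2) or dCeMM-4 (Hit8), each at 10 times its EC50. Another group received THZ531 at 600 nM, a dose that the labels do not tie to an EC50, and the last received DMSO. Every comparison against DMSO uses the same 3 DMSO libraries, and the labels do not tell whether each library is a culture of its own, so p-values measure only the spread between these libraries.

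Paraspeckles are bodies in the cell nucleus that form around the long transcript of NEAT1 while it is being made. The proteins SFPQ, NONO and PSPC1 belong to one family, bind one another in pairs and coat this RNA, and RBM14, DAZAP1 and HNRNPK are among the proteins without which the bodies do not form in human cells. MALAT1, the neighbour of NEAT1 on chromosome 11, collects in a different body, the nuclear speckle. As background on the compounds, dCeMM-1 leads to loss of the splicing factor RBM39, dCeMM-2, dCeMM-3 and dCeMM-4 lead to loss of cyclin K, and THZ531 blocks CDK12 and CDK13, which need cyclin K as their partner.

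The libraries held 4598576 to 17943571 reads counted in genes. Synthetic ERCC and SIRV RNAs, added to each sample as a spike-in, took 0.176% ± 0.0193 of the reads with dCeMM-1, 0.512% ± 0.0784 with dCeMM-2, 0.542% ± 0.0699 with dCeMM-3, 0.234% ± 0.0497 with dCeMM-4, 0.531% ± 0.0992 with THZ531 and 0.179% ± 0.0200 with DMSO (SD, n = 3 each). Levels are given in CPM, read counts per library size of 1e6, scaled by TMM, a method that holds the bulk of the genes level. A TMM fold change is thus a change against the bulk of the transcriptome, and a spike-in fold change one against the added RNA. On that scale the median gene changed by -1.80 (log2) with dCeMM-2, -1.96 with dCeMM-3, -0.56 with dCeMM-4, -1.94 with THZ531 and 0.10 with dCeMM-1. Fewer cells and less RNA per cell cannot be told apart on either scale. The leukocyte gene PTPRC ranged between 222 and 700 CPM over the libraries and the myeloid gene CD33 between 22.3 and 45.5 CPM, while the myeloid granule gene MPO stayed at or below 0.404 CPM. Of markers of other cell types, the T cell gene CD3D (55.3 to 167 CPM), the keratin gene KRT8 (13.2 to 60.7 CPM) and the endothelial gene PECAM1 (16.3 to 49.0 CPM) were read in every library, while ALB, CDH5, COL3A1 and MS4A1 stayed at or below 0.223 CPM. The fibroblast gene COL1A1 had 0.578 to 4.18 CPM.

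RBM14 and RBM4 lie next to each other on chromosome 11 (GRCh38, plus strand), RBM14 at chr11:66616582-66627347 and RBM4 at chr11:66638617-66668374, with 11.27 kb between them. Their promoters are shown because the RNAs of these neighbours did not change together. Each runs over 300 bases, 250 before and 50 after the start of the gene (RefSeq, GRCh38.p14, plus strand, RBM14 at chr11:66616380-66616679 and RBM4 at chr11:66638453-66638752). Capitals mark CCAAT or, on the other strand, ATTGG, a motif searched for after the sequences had been seen.
RBM14 promoter: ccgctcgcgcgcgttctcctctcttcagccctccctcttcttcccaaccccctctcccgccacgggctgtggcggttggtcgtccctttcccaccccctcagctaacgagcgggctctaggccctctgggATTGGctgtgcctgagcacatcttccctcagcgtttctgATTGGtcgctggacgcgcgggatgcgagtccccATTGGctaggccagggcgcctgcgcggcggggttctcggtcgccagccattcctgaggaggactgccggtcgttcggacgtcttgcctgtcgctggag
RBM4 promoter: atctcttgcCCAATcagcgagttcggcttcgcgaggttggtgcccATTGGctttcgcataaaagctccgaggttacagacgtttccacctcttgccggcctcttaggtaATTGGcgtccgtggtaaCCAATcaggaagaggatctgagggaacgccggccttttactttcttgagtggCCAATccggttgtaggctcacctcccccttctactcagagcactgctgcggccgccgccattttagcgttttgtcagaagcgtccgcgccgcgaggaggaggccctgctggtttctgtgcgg
The RBM14 window holds 3 matches and the RBM4 window 5. Of 35116 promoters of the same length, 34.6% hold at least 1 match on either strand, 3.26% at least 3 and 0.359% at least 5.

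NEAT1 (chr11:65422774-65445540) and MALAT1 (chr11:65497688-65506516) lie on the plus strand of the same chromosome, 52.148 kb apart. The ends of their transcripts are shown because poly-A RNA was enriched before sequencing and these RNAs end in different ways. The short NEAT1 transcript (2994 bases in GENCODE 29) ends at a poly-A signal, and the long one (22743 bases) and MALAT1 end, as is known, at a cleaved A-rich tract that folds into a triple helix. Capitals mark the poly-A signal AATAAA in the short transcript and the A-rich tract in the others, all as in GRCh38, plus strand.
NEAT1 short transcript, chr11:65426424-65426513: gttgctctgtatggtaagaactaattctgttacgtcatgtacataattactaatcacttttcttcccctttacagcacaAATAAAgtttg
NEAT1 long transcript, chr11:65445451-65445540: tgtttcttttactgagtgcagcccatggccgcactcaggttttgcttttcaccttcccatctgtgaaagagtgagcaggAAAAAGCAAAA
MALAT1 up to the end of the tract, chr11:65506027-65506116: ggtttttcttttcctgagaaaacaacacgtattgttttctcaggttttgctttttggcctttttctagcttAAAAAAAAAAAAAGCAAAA
The short transcript lies within the long one, so a count of NEAT1 cannot tell the 2 forms apart.

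RBM14, a coactivator of transcription and splicing that also builds the paraspeckle, had a separate range of levels in each of the 6 groups. It had 19.7, 20.3 and 20.3 CPM with dCeMM-1, 216, 211 and 189 CPM with dCeMM-2, and 38.7, 32.1 and 34.96 CPM with dCeMM-3. It had 452, 504 and 485 CPM with dCeMM-4, 115, 115 and 124 CPM with THZ531, and 65.8, 74.1 and 74.7 CPM with DMSO. In the order dCeMM-1, dCeMM-3, DMSO, THZ531, dCeMM-2, dCeMM-4, no library of a group reached into the next group. The mean was 20.1 ± 0.382 CPM with dCeMM-1 and 481 ± 26.6 CPM with dCeMM-4, on either side of 71.5 ± 5.01 CPM with DMSO (SD, n = 3 each). These pairs, which chose the gene, differ by a log2 fold change of -1.82 (SE 0.08) for dCeMM-1 and 2.75 (SE 0.07) for dCeMM-4. Ranked by fold change over all 15055 genes, RBM14 stood 31st from the lowest with dCeMM-1 and 127th from the highest with dCeMM-4. Both shifts kept their sign on the spike-in scale, at -1.78 (SE 0.22) for dCeMM-1 and 2.18 (SE 0.22) for dCeMM-4.

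Earlier results of these data were known when the genes were chosen, and all comparisons against DMSO share the DMSO libraries. By TMM, compounds other than dCeMM-1 and dCeMM-4, whose values chose RBM14, also moved this gene, and not in one direction. On the spike-in scale their values were all below 0, and that of dCeMM-2 was not called. Against DMSO it rose 2.89-fold with dCeMM-2 by TMM (log2 fold change 1.53, SE 0.07, adjusted p = 5.29e-21, edgeR), and it was at -0.27 on the spike-in scale (SE 0.21, adjusted p = 0.227). With THZ531 it rose by 0.73 on the log2 scale by TMM (SE 0.07, adjusted p = 1.63e-11) and fell by 1.14 relative to the spike-in RNA (SE 0.21, adjusted p = 1.18e-07). With dCeMM-3 it fell on both scales, by 1.01 by TMM (SE 0.08, adjusted p = 1.29e-14) and by 2.84 relative to the spike-in RNA (SE 0.23, adjusted p = 6.83e-36). The dCeMM-3 libraries thus held 35.3 ± 3.31 CPM, below every DMSO library, and the THZ531 libraries 118 ± 4.92 CPM, above every one. Leaving out any 1 of the 18 libraries left the TMM fold change between 1.46 and 1.58 with dCeMM-2, between -1.10 and -0.97 with dCeMM-3 and between 0.65 and 0.75 with THZ531.

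RBM4, a splicing factor related to RBM14 whose Drosophila counterpart is Lark, varied far less than its neighbour. It had 31.2, 32.2 and 31.2 CPM with dCeMM-1, 25.03, 19.3 and 21.2 CPM with dCeMM-2, and 21.4, 20.2 and 26.5 CPM with dCeMM-3. It had 42.5, 42.5 and 49.0 CPM with dCeMM-4, 25.5, 24.2 and 26.7 CPM with THZ531, and 28.4, 27.8 and 28.6 CPM with DMSO. All groups but dCeMM-1 and dCeMM-4 lay below DMSO with no overlap. RBM4 fell by 0.36 with dCeMM-2 (log2, TMM, SE 0.10, adjusted p = 0.0019) and by 0.31 with dCeMM-3 (SE 0.10, adjusted p = 0.00579), and the value with THZ531 was -0.15 (SE 0.10, adjusted p = 0.183). The call with dCeMM-3 was lost with DESeq2 size factors, which gave -0.15, and the THZ531 value was then 0.01. Relative to the spike-in RNA it fell in all 3 comparisons, where dCeMM-2 gave -2.16, dCeMM-3 -2.12 and THZ531 -1.99. With dCeMM-4, the RBM4 fold change was 0.66 (SE 0.09) by TMM and 0.10 (SE 0.22) against the spike-in RNA.

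Within a library the ratio of RBM14 to RBM4 reads does not depend on how libraries are scaled. It was 0.632, 0.632 and 0.652 with dCeMM-1, 8.63, 10.9 and 8.92 with dCeMM-2, and 1.81, 1.59 and 1.32 with dCeMM-3. It was 10.6, 11.9 and 9.91 with dCeMM-4, 4.50, 4.75 and 4.62 with THZ531, and 2.32, 2.66 and 2.62 with DMSO. Against DMSO the ratio was 0.253 times as high with dCeMM-1, 3.73 times with dCeMM-2, 0.618 times with dCeMM-3, 4.26 times with dCeMM-4 and 1.83 times with THZ531. No library of a compound fell among the DMSO libraries. The exact two-sided permutation p was 0.1 for dCeMM-2, dCeMM-3 and THZ531 (adjusted 0.1 over 12 ratios tested), the smallest that 3 libraries against 3 allow. Per kb of exon that no other gene covers, RBM14 stood at 5.74 CPM and RBM4 at 7.16 CPM with dCeMM-1, against 20.4 and 6.42 CPM with DMSO. This order in the dCeMM-1 libraries rests on the length used, since over all exon bases RBM14 had 5.11 and RBM4 4.78 CPM per kb.

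The annotation also holds RBM14-RBM4, a readthrough gene that shares exons with both (chr11:66616626-66646469, plus strand), so reads in shared exons may have been set aside as ambiguous. Such reads made up 2.11% to 2.41% of a library over all genes, and 89.0% of the exon bases of RBM14 and 66.8% of those of RBM4 belong to one gene alone. The readthrough gene had 13 to 51 reads in a library and 2.53 ± 0.0280 CPM with dCeMM-1, 1.94 ± 0.146 with dCeMM-2, 2.25 ± 0.334 with dCeMM-3, 2.69 ± 0.301 with dCeMM-4, 2.07 ± 0.447 with THZ531 and 1.89 ± 0.529 with DMSO. By TMM its log2 fold changes ranged between 0.18 (dCeMM-2) and 0.64 (dCeMM-4), and none of those with dCeMM-2, dCeMM-3 and THZ531 passed the test. Relative to the spike-in RNA it was at -1.61 with dCeMM-2 (SE 0.36, adjusted p = 9.60e-06, edgeR), -1.43 with dCeMM-3 and -1.59 with THZ531. As a description, the spike-in value was 0.06 with dCeMM-4 and 0.59 with dCeMM-1. RBM4B, the near copy of RBM4 on the opposite strand (chr11:66664998-66677921), overlaps the end of RBM4, and reads of such a pair cannot be told apart without a strand setting. RBM4B fell by 1.33 with dCeMM-2, by 1.45 with dCeMM-3 and by 1.01 with THZ531 by TMM (SE 0.11 each, adjusted p = 1.73e-13, 9.40e-15 and 8.85e-11), and further relative to the spike-in RNA.

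**Figure D1:**
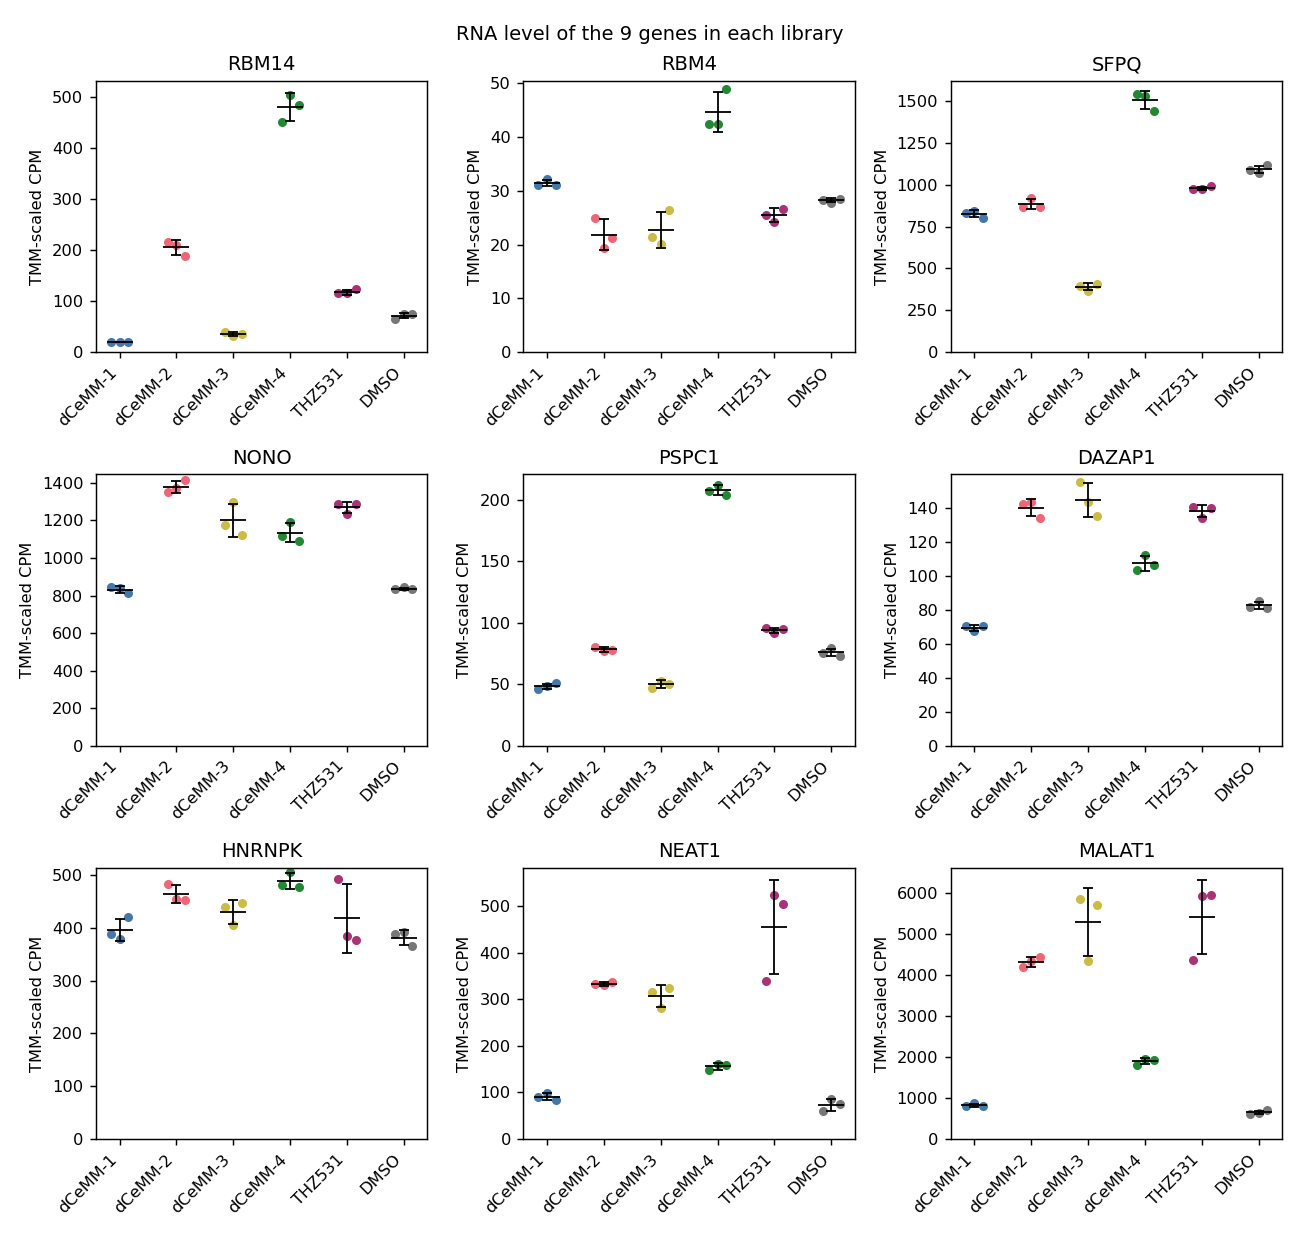
TMM-scaled CPM of the 9 genes in each library (vertical axis, linear, from 0) by group (horizontal axis). Points are libraries, the wide bar is the mean and the error bar the SD of 3 libraries. RBM14 runs between 20.1 CPM with dCeMM-1 and 481 CPM with dCeMM-4, and NEAT1 and MALAT1 are highest with dCeMM-2, dCeMM-3 and THZ531.

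The 3 family members SFPQ, NONO and PSPC1, partners in the paraspeckle, did not change in parallel. SFPQ, also a splicing and DNA repair factor (chr1:35176378-35193148, minus strand), was lowest with dCeMM-3, at 396, 368 and 409 CPM, and highest with dCeMM-4, at 1543, 1530 and 1442 CPM, against 1086, 1073 and 1117 CPM with DMSO. With dCeMM-1 it had 833, 841 and 802 CPM, with dCeMM-2 866, 919 and 870 CPM, and with THZ531 976, 973 and 990 CPM. The 6 groups did not overlap. SFPQ fell by 1.48 with dCeMM-3 (log2, TMM, SE 0.06, adjusted p = 3.62e-24), by 0.30 with dCeMM-2 (SE 0.06, adjusted p = 7.77e-06) and by 0.16 with THZ531 (SE 0.06, adjusted p = 0.0114), a fall that DESeq2 put at 0.00. Against the spike-in RNA it fell by 3.30 with dCeMM-3, by 2.09 with dCeMM-2 and by 2.01 with THZ531. With dCeMM-4 the TMM value was 0.46 (SE 0.06) and the spike-in value -0.11 (SE 0.19). With dCeMM-1 the TMM value was -0.40 (SE 0.06) and the spike-in value -0.35 (SE 0.19).

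NONO, the usual partner of SFPQ (chrX:71283192-71301168, plus strand), had 844, 840 and 811 CPM with dCeMM-1, 1352, 1374 and 1415 CPM with dCeMM-2, and 1176, 1299 and 1125 CPM with dCeMM-3. It had 1117, 1190 and 1093 CPM with dCeMM-4, 1285, 1236 and 1288 CPM with THZ531, and 834, 843 and 834 CPM with DMSO. The dCeMM-1 and DMSO libraries overlapped, and all other groups lay above both. By TMM, but not against the spike-in RNA, NONO rose by 0.72 with dCeMM-2, by 0.52 with dCeMM-3 and by 0.60 with THZ531 (log2, SE 0.06 each, adjusted p = 3.16e-14, 1.76e-10 and 4.46e-12). On the spike-in scale it fell by 1.07, 1.32 and 1.25 in the same order, so its direction depends on the scale, although each of these falls was smaller than that of the median gene. Its TMM fold change was 0.44 with dCeMM-4 (-0.13 on the spike-in scale) and -0.01 with dCeMM-1 (0.04 on the spike-in scale).

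PSPC1 (chr13:19674752-19783019, minus strand) had the lowest level of the family, at 15.8 CPM per kb of exon with DMSO, where SFPQ had 147 and NONO 158 CPM per kb. It had 46.4, 48.1 and 50.6 CPM with dCeMM-1, 80.1, 76.6 and 78.0 CPM with dCeMM-2, and 46.7, 53.0 and 50.1 CPM with dCeMM-3. It had 207, 212 and 204 CPM with dCeMM-4, 95.7, 91.7 and 94.7 CPM with THZ531, and 75.2, 79.1 and 73.0 CPM with DMSO. The dCeMM-4 libraries stood above all others, and those of dCeMM-1 and dCeMM-3 overlapped below DMSO. The TMM fold change was 1.45 with dCeMM-4 (SE 0.07, 0.89 on the spike-in scale) and -0.65 with dCeMM-1 (SE 0.07, -0.59 on the spike-in scale). PSPC1 fell by 0.61 with dCeMM-3 by TMM (SE 0.07, adjusted p = 3.94e-10) and by 2.43 relative to the spike-in RNA. With THZ531 it rose by 0.31 by TMM (SE 0.07, adjusted p = 1.03e-04) and fell by 1.54 relative to the spike-in RNA. With dCeMM-2 the TMM value was 0.04 (SE 0.07, adjusted p = 0.590), against -1.74 on the spike-in scale. Over the 18 libraries the Pearson correlation of TMM log2 CPM was 0.91 between PSPC1 and RBM14, 0.78 between PSPC1 and SFPQ and 0.28 between PSPC1 and NONO, values that share the same libraries and scaling. The value with RBM14 includes the dCeMM-1 and dCeMM-4 libraries, which chose that gene, so nothing is read from it. Libraries of 1 group are not independent points in these correlations.

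DAZAP1, a splicing regulator named for its binding to the germ-cell protein DAZ (chr19:1407569-1435687, plus strand), moved much as NONO did. It had 70.1, 67.2 and 70.7 CPM with dCeMM-1, 143, 144 and 134 CPM with dCeMM-2, and 155, 143 and 135 CPM with dCeMM-3. It had 103, 112 and 107 CPM with dCeMM-4, 140, 134 and 140 CPM with THZ531, and 81.8, 84.9 and 81.1 CPM with DMSO. The dCeMM-1 libraries lay below DMSO and all others above it. DAZAP1 rose by 0.76 with dCeMM-2, by 0.81 with dCeMM-3 and by 0.74 with THZ531 by TMM (log2, SE 0.07 each, adjusted p = 5.08e-13, 6.81e-14 and 1.01e-12) and fell by 1.02, 1.02 and 1.11 relative to the spike-in RNA. The Pearson correlation of DAZAP1 with NONO over the 18 libraries was 0.94.

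HNRNPK, which is known to favour the long NEAT1 transcript by hindering cleavage at the poly-A signal of the short one (chr9:83968083-83980616, minus strand), had group means within 381 and 488 CPM. It had 389, 379 and 420 CPM with dCeMM-1, 483, 454 and 453 CPM with dCeMM-2, and 439, 405 and 447 CPM with dCeMM-3. It had 481, 506 and 478 CPM with dCeMM-4, 493, 384 and 377 CPM with THZ531, and 388, 391 and 365 CPM with DMSO. THZ531 and dCeMM-1 overlapped DMSO, and the other compounds lay above it. By TMM, but not against the spike-in RNA, HNRNPK rose by 0.28 with dCeMM-2 (SE 0.07, adjusted p = 6.34e-04) and by 0.17 with dCeMM-3 (SE 0.07, adjusted p = 0.0262), a call lost on leaving out any of 12 single libraries. With THZ531 it was 0.13 (SE 0.07, adjusted p = 0.0938), or -0.02 without THZ531 replicate 1. On the spike-in scale HNRNPK fell by 1.51 with dCeMM-2, by 1.64 with dCeMM-3 and by 1.69 with THZ531.

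The nuclear RNAs gave the largest rises of the group with dCeMM-2, dCeMM-3 and THZ531. MALAT1, known for binding splicing factors in nuclear speckles, had 808, 868 and 796 CPM with dCeMM-1, 4188, 4352 and 4433 CPM with dCeMM-2, and 5844, 4344 and 5699 CPM with dCeMM-3. It had 1812, 1948 and 1937 CPM with dCeMM-4, 4369, 5926 and 5958 CPM with THZ531, and 619, 627 and 700 CPM with DMSO. All compounds lay above DMSO, and dCeMM-2, dCeMM-3 and THZ531 above dCeMM-4, and these 3 overlapped one another. MALAT1 rose 6.67-fold with dCeMM-2, 8.17-fold with dCeMM-3 and 8.36-fold with THZ531 by TMM (log2 2.74, 3.03 and 3.06, SE 0.11, 0.12 and 0.12, adjusted p = 3.07e-14, 5.22e-15 and 5.56e-15). It also rose relative to the spike-in RNA, by 0.94 with dCeMM-2, by 1.22 with dCeMM-3 and by 1.18 with THZ531 (SE 0.19 each, adjusted p = 1.27e-06, 4.19e-10 and 1.45e-09). With dCeMM-4 the TMM fold change was 1.55 and the spike-in one 0.98, and with dCeMM-1 they were 0.35 and 0.39. It was the only one of the 9 genes called higher than DMSO on both scales with dCeMM-2 and with dCeMM-3.

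NEAT1, the scaffold of the paraspeckle, had 89.3, 99.5 and 83.95 CPM with dCeMM-1, 333, 330 and 337 CPM with dCeMM-2, and 316, 280 and 324 CPM with dCeMM-3. It had 148, 161 and 159 CPM with dCeMM-4, 338, 523 and 504 CPM with THZ531, and 59.7, 86.0 and 75.1 CPM with DMSO. Only dCeMM-1 overlapped DMSO. By TMM, NEAT1 rose 4.53-fold with dCeMM-2, 4.18-fold with dCeMM-3 and 6.19-fold with THZ531 (log2 2.18, 2.06 and 2.63, SE 0.16 each, adjusted p = 8.19e-09, 1.34e-08 and 8.74e-10). Relative to the spike-in RNA it rose by 0.73 with THZ531 (SE 0.21, adjusted p = 6.79e-04) and was at 0.37 with dCeMM-2 (95% interval -0.08 to 0.83, adjusted p = 0.0854) and 0.23 with dCeMM-3 (95% interval -0.22 to 0.68, adjusted p = 0.295). On that scale the median gene fell by 1.80 with dCeMM-2 and by 1.96 with dCeMM-3. The dCeMM-4 values were 1.08 by TMM and 0.51 against the spike-in RNA, and the dCeMM-1 values 0.31 and 0.34.

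In 5 of the 6 groups the library lowest in both NEAT1 and MALAT1 also had the lowest share of reads outside annotated exons. These are reads that the counting gave to no gene, as a percentage of such reads plus those counted in genes. Ambiguous and multiply aligned reads are left out. The strand setting is not given, so reads opposite to an exon may be among them. That share was 8.26% ± 0.270 with dCeMM-1, 11.96% ± 1.56 with dCeMM-2, 9.09% ± 1.36 with dCeMM-3, 11.99% ± 0.853 with dCeMM-4, 11.6% ± 2.74 with THZ531 and 7.30% ± 0.475 with DMSO (SD, n = 3 each). THZ531 replicate 1, with the lowest NEAT1 and MALAT1 of its group, had a share of 8.48%, against 13.3% and 13.2% in the other THZ531 libraries. dCeMM-3 replicate 2, again the lowest of its group for both RNAs, had 7.57%, against 10.2% and 9.49%. The exception was dCeMM-2, where the share was 10.4%, 12.1% and 13.5% and NEAT1 had 333, 330 and 337 CPM. Markers of other cell types also differed between groups, not all in the same way. KRT8 had 50.7 ± 1.26 CPM under dCeMM-2, 56.7 ± 4.68 under dCeMM-3, 46.1 ± 3.04 under THZ531 and 14.6 ± 1.40 under DMSO (SD, n = 3 each). The other epithelial marker, EPCAM, was much lower in level but also higher than with DMSO. It had 1.09 ± 0.563 CPM under dCeMM-2, 0.839 ± 0.0815 under dCeMM-3, 1.02 ± 0.122 under THZ531 and 0.442 ± 0.118 under DMSO. CD3D had 135 ± 7.67 CPM under dCeMM-2, 145 ± 19.0 under dCeMM-3, 141 ± 7.33 under THZ531 and 65.1 ± 3.46 under DMSO, while the other T cell marker, CD3E, stayed at or below 4.46 CPM. The part of the exon share and of these markers in the NEAT1 and MALAT1 results was not tested.

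**Figure D2:**
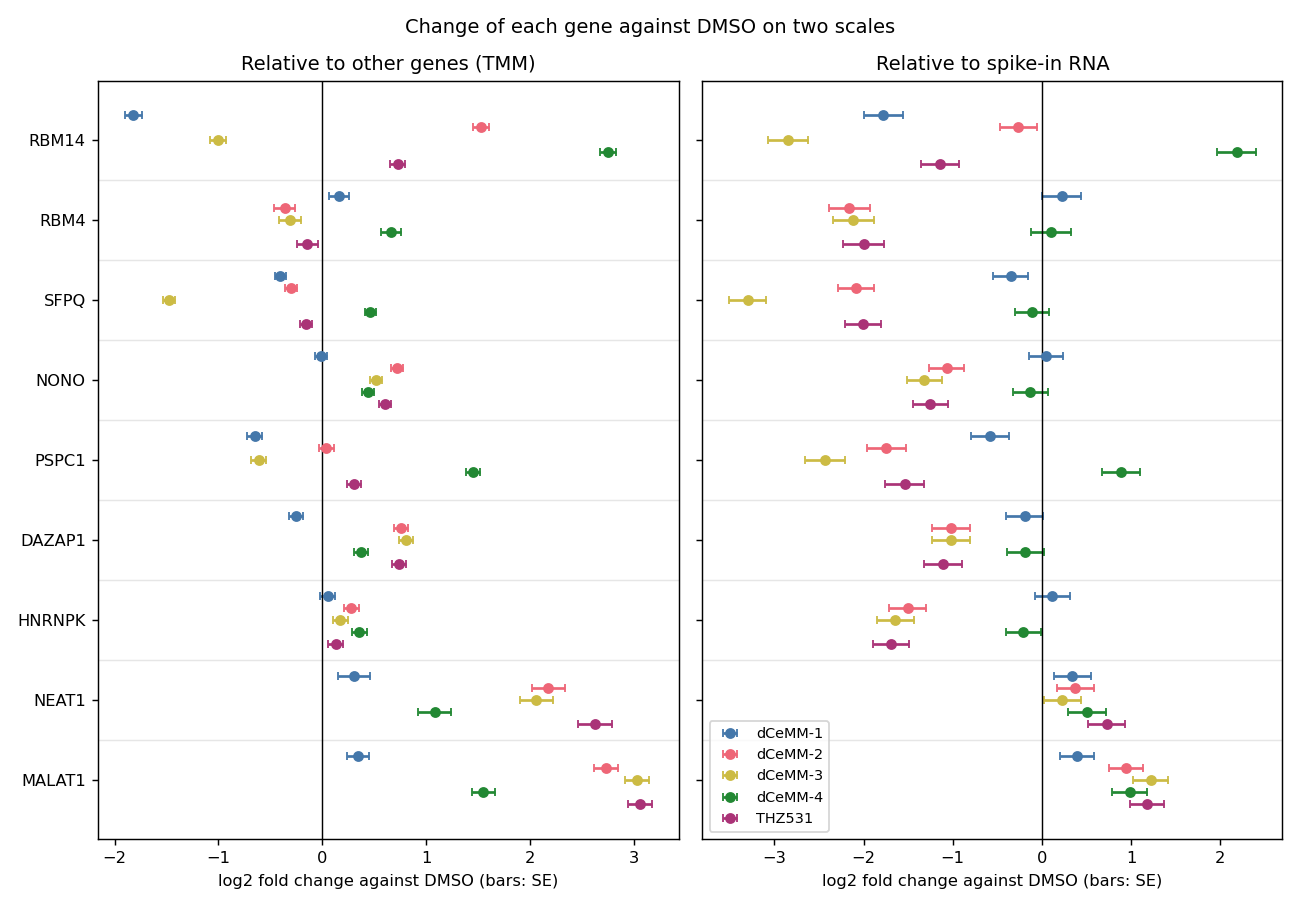
Log2 fold change of each gene against DMSO (horizontal axis) by TMM (left) and relative to spike-in RNA (right), with genes down the page and bars for the SE of the fit to 18 libraries. SFPQ, NONO, PSPC1, DAZAP1, HNRNPK and RBM4 lie below 0 on the right with dCeMM-2, dCeMM-3 and THZ531, while MALAT1 lies above 0 on both sides.

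Of the 9 genes, 6 were called higher and 2 lower with dCeMM-2 by TMM at an adjusted p under 0.05 (edgeR), where 37.1% of all genes tested were called higher and 41.2% lower. With dCeMM-3, 5 were higher and 4 lower, where 35.9% of all genes were higher and 45.1% lower. With THZ531, 6 were higher and 1 lower, where 35.8% of all genes were higher and 43.7% lower. The 9 genes had a median log2 fold change of 0.72 under dCeMM-2, 0.17 under dCeMM-3 and 0.60 under THZ531, against -0.02, -0.15 and -0.10 for all genes tested. Against the spike-in RNA, MALAT1 alone was higher under dCeMM-2 and under dCeMM-3 (1.48% and 1.12% of all genes), and 6 genes were lower with dCeMM-2 and 7 with dCeMM-3 (83% and 83.7% of all genes). With THZ531 on that scale, NEAT1 and MALAT1 were higher (1.32% of all genes) and the other 7 lower (84.7%). For the compounds that chose RBM14, the counts past the same threshold include RBM14, are a description only, and nothing is read from them. With dCeMM-4, 9 were higher and 0 lower by TMM (32.9% and 35.3% of all genes) and 4 higher and 0 lower against the spike-in RNA (6.3% and 48%). With dCeMM-1, 1 was higher and 4 lower by TMM (16.5% and 14.8% of all genes), and against the spike-in RNA 0 were higher and 1 lower (2.83% and 1.34%).

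Ratios between partners, which do not depend on scaling, changed as well. Reads of SFPQ per read of NONO were 0.987, 1.00 and 0.989 with dCeMM-1, 0.640, 0.669 and 0.615 with dCeMM-2, and 0.337, 0.283 and 0.364 with dCeMM-3. They were 1.38, 1.29 and 1.32 with dCeMM-4, 0.759, 0.787 and 0.769 with THZ531, and 1.30, 1.27 and 1.34 with DMSO. The balance of these partners was thus 0.250 times that of DMSO with dCeMM-3, 0.491 times with dCeMM-2, 0.592 times with THZ531 and 1.02 times with dCeMM-4, where the libraries overlapped those of DMSO. The PSPC1 to NONO ratio was 0.460 times as high with dCeMM-3, 0.626 times with dCeMM-2, 0.818 times with THZ531, 0.643 times with dCeMM-1 and 2.03 times with dCeMM-4, with no overlap with DMSO. NEAT1 rose less than MALAT1, so that their ratio was 0.519 times that of DMSO with dCeMM-3, 0.686 times with dCeMM-2, 0.742 times with THZ531 and 0.731 times with dCeMM-4, again with no overlap. With dCeMM-1 it was 0.980 times as high and overlapped. Each of these ratios for dCeMM-2, dCeMM-3 and THZ531 had an exact two-sided permutation p of 0.1 (adjusted 0.1 over 12 ratios), the smallest possible with 3 libraries a group.

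**Figure D3:**
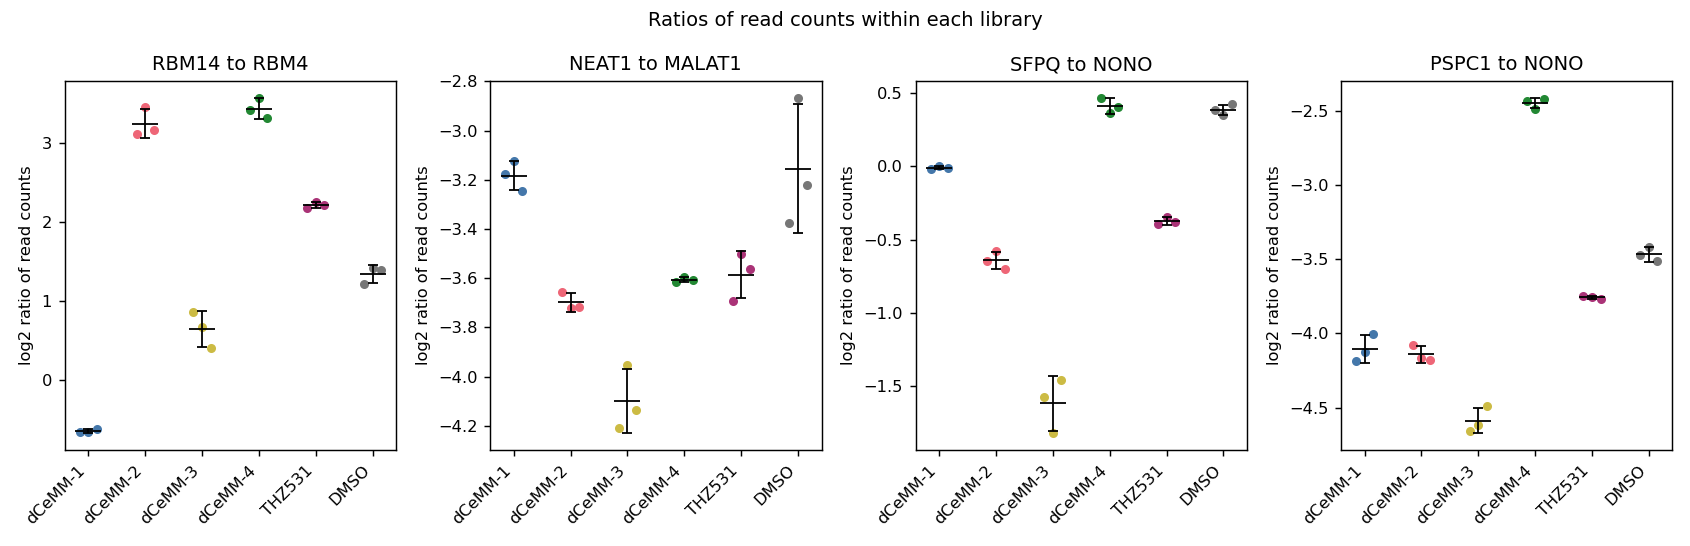
Log2 ratio of the read counts of gene pairs within each library (vertical axis), by group (horizontal axis), with points for libraries and bars for mean and SD of 3. The RBM14 to RBM4 ratio is highest with dCeMM-4 and dCeMM-2 and lowest with dCeMM-1, and the SFPQ to NONO ratio is lowest with dCeMM-3.

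At their matched multiple of EC50, dCeMM-2 and dCeMM-3 moved RBM14 to opposite sides of DMSO by TMM, while against the spike-in RNA both values were below 0 (-0.27 and -2.84). RBM14 was 5.80-fold higher with dCeMM-2 than with dCeMM-3 (log2 2.54, SE 0.08, 95% interval 2.37 to 2.70, adjusted p = 7.66e-27), with 189 to 216 CPM in the dCeMM-2 libraries and 32.1 to 38.7 CPM in the dCeMM-3 libraries. The spike-in scale gave 2.58 (SE 0.22, adjusted p = 2.79e-29). SFPQ was 2.26-fold higher with dCeMM-2 (log2 1.18, SE 0.06, adjusted p = 1.64e-20, spike-in 1.21) and PSPC1 1.57-fold higher (log2 0.65, SE 0.07, adjusted p = 2.85e-10, spike-in 0.69). NONO was higher by 0.20 (SE 0.06, adjusted p = 0.00368) and MALAT1 was at -0.29 (SE 0.11, adjusted p = 0.0340), with overlapping libraries. Neither call held on the spike-in scale, and that of MALAT1 was lost on leaving out any of 8 single libraries. No difference was called for NEAT1 (0.12, 95% interval -0.20 to 0.44), RBM4 (-0.05, -0.28 to 0.18), DAZAP1 (-0.05, -0.19 to 0.10) and HNRNPK (0.11, -0.05 to 0.26). In all, 4 genes were higher and 1 lower, where 26.6% of all genes were higher and 16.5% lower, and against the spike-in RNA 3 were higher and 0 lower (18.4% and 4.32% of all genes).

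Set against dCeMM-4, both other cyclin K compounds left RBM14 lower, at -1.22 with dCeMM-2 and -3.76 with dCeMM-3 on the log2 scale (TMM, SE 0.07 and 0.08), values given as a description since dCeMM-4 served to choose the gene. PSPC1 was at -1.41 with dCeMM-2 against dCeMM-4 and at -2.06 with dCeMM-3 against dCeMM-4, and SFPQ at -0.77 and -1.94. MALAT1 differed the other way, by 1.19 for dCeMM-2 and 1.48 for dCeMM-3 against dCeMM-4, and NEAT1 by 1.09 and 0.98. On the spike-in scale these MALAT1 differences were -0.04 and 0.24 and the NEAT1 differences -0.13 and -0.28, with overlapping libraries in each case. As a description that counts RBM14 among the lower genes, 4 of the 9 genes were past the threshold and higher and 4 lower with dCeMM-2 than with dCeMM-4 by TMM (38.4% and 38.9% of all genes), and against the spike-in RNA 0 higher and 7 lower (2.63% and 66.8%). With dCeMM-3 against dCeMM-4, counted in the same way, 3 were higher and 5 lower (41.5% and 41.2% of all genes), and against the spike-in RNA 0 higher and 7 lower (5.35% and 65.3%).

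A list of 36 other reported paraspeckle proteins, 35 of which passed the filter, gives the surroundings of these genes. By TMM, 9 rose and 18 fell with dCeMM-2 (37.1% and 41.2% of all genes), 7 rose and 26 fell with dCeMM-3 (35.9% and 45.1%), and 12 rose and 20 fell with THZ531 (35.8% and 43.7%). Their median log2 fold change was -0.36, -0.69 and -0.43 in these comparisons, against -0.02, -0.15 and -0.10 over all genes. All 35 fell relative to the spike-in RNA with each of the 3 compounds, where 83%, 83.7% and 84.7% of all genes did. As a description with no test, 18 were higher and 11 lower with dCeMM-4 by TMM (32.9% and 35.3% of all genes; median 0.27, against 0.01 over all genes), and the direction turned against the spike-in RNA, with 1 higher and 16 lower (6.3% and 48%; median -0.30, against -0.56). With dCeMM-1, 4 were higher and 16 lower by TMM (16.5% and 14.8%; median -0.13, against 0.03), and 1 higher and 0 lower against the spike-in RNA (2.83% and 1.34%; median -0.09, against 0.10).

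With dCeMM-2 the strongest falls in this list were those of CPSF7, a subunit of the cleavage factor that sets poly-A sites, at 24.4 ± 2.53 CPM against 132 ± 2.74 CPM with DMSO (log2 -2.42, SE 0.09, adjusted p = 1.27e-24), of AHDC1 (-2.07) and of TARDBP, the RNA-binding protein TDP-43 (-2.07). CPSF6, another subunit of the same factor, rose by 0.72 by TMM (adjusted p = 3.21e-13) and fell by 1.06 relative to the spike-in RNA. HNRNPA1, a splicing repressor, and CIRBP, a cold-induced RNA-binding protein, rose by 0.98 and 0.90 by TMM and were at -0.81 and -0.90 on the spike-in scale. With dCeMM-3 AHDC1 (-3.48), FAM98A (-3.24) and the homeobox gene DLX3 (-3.03) fell, while the zinc finger gene ZC3H6 rose by 1.21, HNRNPA1 by 0.85 and HNRNPH3 by 0.66 by TMM, all of them below 0 on the spike-in scale. With THZ531 AHDC1 (-2.70), the transcription factor gene RUNX3 (-2.03) and TARDBP (-1.95) fell, and CIRBP rose by 1.17, HNRNPA1 by 0.99 and the cleavage factor subunit NUDT21 by 0.67 by TMM, with spike-in values of -0.71, -0.87 and -1.15. With dCeMM-4, CPSF6 was at 1.17, RBM12 at 0.99 and HNRNPR at 0.96 by TMM and still above 0 on the spike-in scale (0.60, 0.42 and 0.40), and ZC3H6 was at -1.48, SMARCC2 at -1.05 and RBMX at -1.03. With dCeMM-1, ZC3H6 was at 1.40, RUNX3 at 0.45 and CIRBP at 0.35, and MEX3A at -0.72, FAM98A at -0.53 and SMARCA4 at -0.52.

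**Figure D4:**
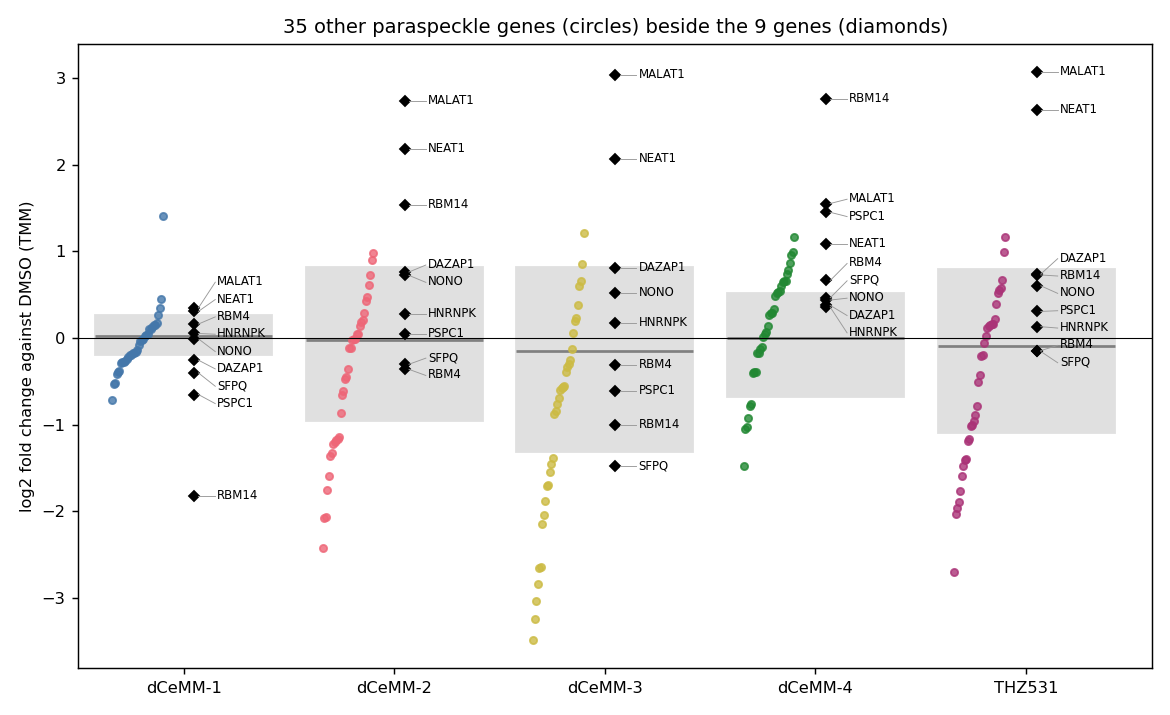
Log2 fold change by TMM against DMSO (vertical axis) for 35 other paraspeckle genes (coloured circles, in order of value) and for the 9 genes (black diamonds, named), by compound (horizontal axis). The grey box spans the lower to the upper quartile of all 15055 genes and the grey line is their median. MALAT1 and NEAT1 stand above all 35 with dCeMM-2, dCeMM-3 and THZ531. RBM14 stands above them with dCeMM-4 and below them with dCeMM-1, the compounds whose values chose it.

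Of 13 other long non-coding RNA genes that passed the filter, 4 rose and 4 fell with dCeMM-2, 7 rose and 2 fell with dCeMM-3, and 5 rose and 3 fell with THZ531 by TMM, where 37.1%, 35.9% and 35.8% of all genes rose and 41.2%, 45.1% and 43.7% fell. Their median was 0.09, 0.29 and 0.12 in these comparisons. None was called higher against the spike-in RNA with any of these 3 compounds, on a scale where 1.48%, 1.12% and 1.32% of all genes were. PVT1, the neighbour of MYC, was the highest of the 13 by TMM with dCeMM-2, at 1.56 (SE 0.12, -0.19 on the spike-in scale), and MIAT with dCeMM-3 and THZ531, at 2.26 (SE 0.59) and 2.33 (SE 0.59), with spike-in values of 0.53 and 0.55. PVT1 and MIAT were picked after their values were seen.

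Genes beside these loci changed by other amounts. Of genes whose start lies within 100 kb of the start of RBM14, 6 others passed the filter, with TMM fold changes between -1.33 (RBM4B) and 1.44 (CTSF, a lysosomal protease) with dCeMM-2, and between -0.26 (CCS) and 0.66 (RBM4) with dCeMM-4. CCS, the next of them upstream and the copper chaperone of superoxide dismutase, had log2 fold changes of 0.08 with dCeMM-1, 0.54 with dCeMM-2, 0.55 with dCeMM-3, -0.26 with dCeMM-4 and 0.26 with THZ531. RBM14 lay outside the range of these neighbours with dCeMM-1 and dCeMM-4, which served to choose it, so nothing is read from this. It was above the range, close to CTSF, with dCeMM-2, and within it with dCeMM-3 and THZ531. Within the same distance of the start of NEAT1, 5 genes other than MALAT1 passed the filter, and among them FRMD8 fell by TMM, where dCeMM-2 gave -1.83, dCeMM-3 -1.86 and THZ531 -0.63, as did DPF2, where dCeMM-2 gave -1.49, dCeMM-3 -2.23 and THZ531 -2.32. The median of these 5 was -0.04, 0.03 and 0.28 in the same comparisons, and the highest value was 0.72, 0.77 and 0.93. None of the 5 reached the fold change of NEAT1 or MALAT1 with dCeMM-2, dCeMM-3 or THZ531. As a description, TIGD3 was at 1.05 (SE 0.38) with dCeMM-1, above NEAT1 (0.31) and MALAT1 (0.35). With dCeMM-4 it was the highest of the 5 at 0.87, below NEAT1 (1.08) and MALAT1 (1.55). All 5 start before MALAT1, so no gene beyond MALAT1 was compared.

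**Figure D5:**
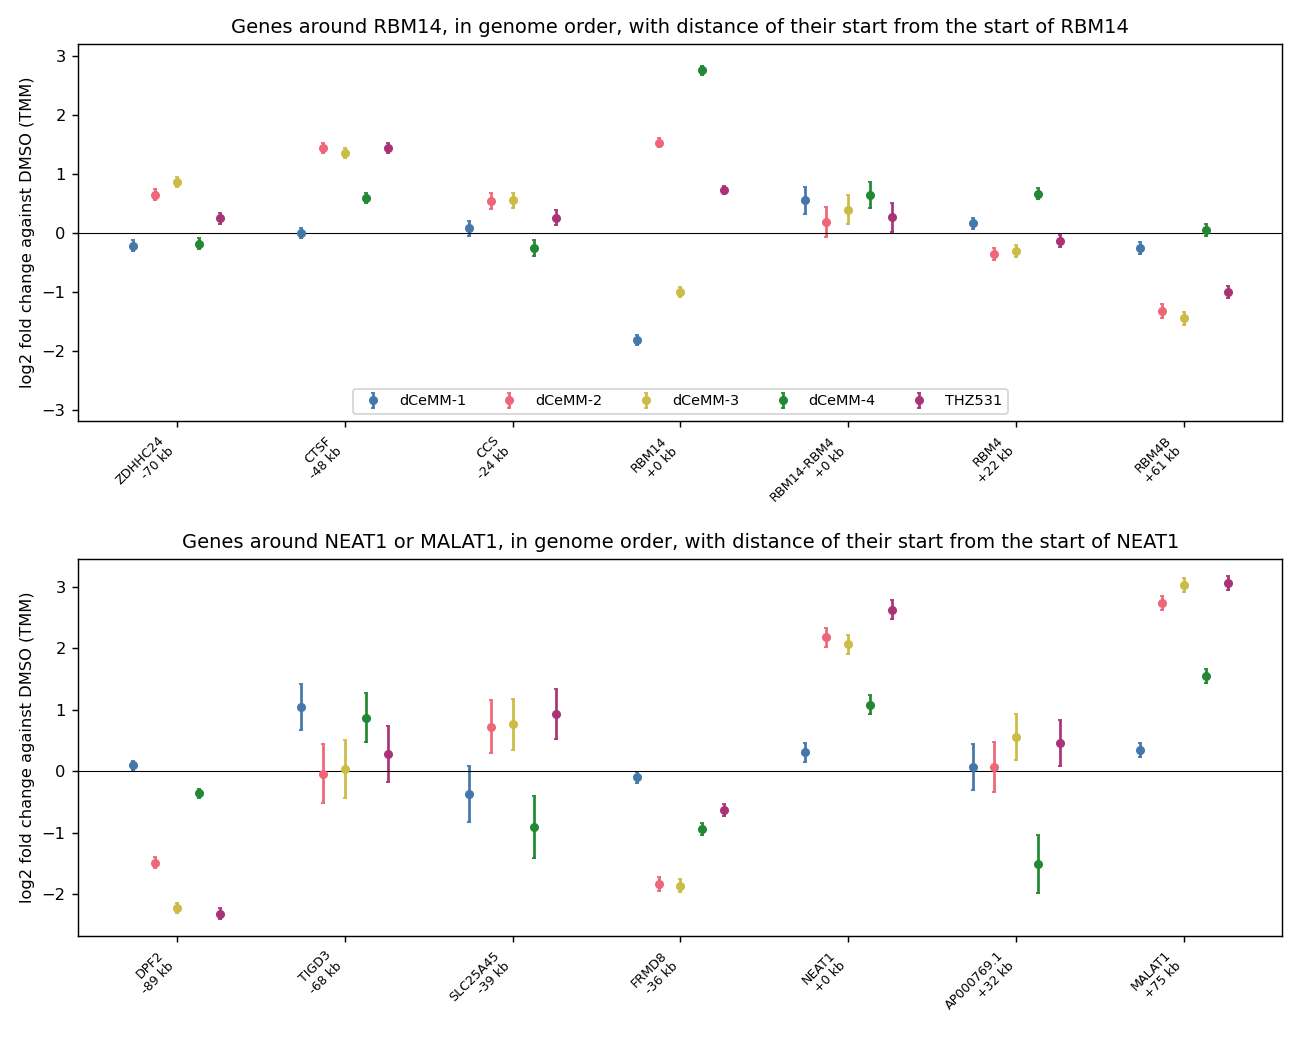
Log2 fold change by TMM against DMSO (vertical axis, bars SE) for genes that start within 100 kb of the start of RBM14 (top) or of NEAT1 (bottom). Genes are placed in genome order with the distance of their starts in kb from the start of RBM14 or of NEAT1. MALAT1 is the last in the bottom panel. RBM14 is at 2.75 with dCeMM-4 and -1.82 with dCeMM-1, values that chose the gene. NEAT1 and MALAT1 stand above their other neighbours with dCeMM-2, dCeMM-3 and THZ531, while TIGD3 stands above both with dCeMM-1.

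Among 9877 protein-coding genes with a mean of at least 5 CPM, the Pearson correlation of TMM log2 CPM with RBM14 over the 18 libraries was highest for STRAP (0.983), a WD-repeat protein of the SMN complex, and HNRNPU (0.983), a nuclear matrix RNA-binding protein. REXO2 (0.974), WRNIP1 (0.974) and COPRS (0.969) came next. Their changes were smaller than those of RBM14, with HNRNPU at -0.39 with dCeMM-1, 0.50 with dCeMM-2, -0.12 with dCeMM-3, 1.03 with dCeMM-4 and 0.34 with THZ531. These changes ran in the order of those of RBM14, which is expected of genes picked by this correlation. The genes most like NEAT1 were GSTM2 (0.983), COL6A1 (0.980), AGRN (0.979), DNM1 (0.979) and TIMP2 (0.979). NEAT1 and MALAT1 correlated at 0.98, while RBM14 correlated at 0.29 with NEAT1, 0.27 with MALAT1 and 0.36 with RBM4. These values describe groups that differ in level and libraries that share a scaling, and carry no test. Those with RBM14 also include the dCeMM-1 and dCeMM-4 libraries, which chose it.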

How the data were processed

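RNA was measured by sequencing of poly-A enriched RNA (CORALL kit) in 18 libraries, 3 in each of 6 groups, with ERCC and SIRV spike-in RNA added, per the labels' protocols. The deposited files hold raw read counts per gene. Per the submitters' processing notes, which give no order or role, the tools were Trimmomatic 0.32, STAR 2.5.2b, Picard and HTSeq 0.11.2 with build GRCh38.p7. The strand setting, the overlap mode, the annotation release, any use of molecular identifiers and the spike-in amount per cell are not given in the sources used here.

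Of 58051 gene IDs, 57447 matched GENCODE 29. Reads without a gene (6.75% to 13.5% of these plus the reads counted in genes) and the 5 summary lines stayed out of library sizes and tests. Counts were fitted with edgeR 4.0.16 (limma 3.58.1, R 4.3.3): quasi-likelihood with robust estimates, TMM on endogenous genes, filterByExpr by group (15055 genes tested), 1 coefficient per group over 18 libraries (12 residual degrees of freedom), and Benjamini-Hochberg adjustment over all genes tested, at 0.05. A second scaling used the summed counts of 92 ERCC and 7 SIRV features. Every adjusted p of a fold change comes from edgeR, with a separate fit for each scaling. That of a ratio comes from exact permutation, adjusted by Benjamini-Hochberg over 12 ratios. Correlations used log2 CPM with a prior count of 2. Within-library ratios were compared by exact permutation (SciPy 1.17.1). Alternatives were spike-in scaling, DESeq2 1.42.0 and its size factors, no filter, fits of the compared groups alone, a replicate block, each library left out, all exon bases for levels per kb and 0.5 added to counts in ratios. The fit was tested on simulated counts.

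The 9 genes and the lists of 36 paraspeckle and 15 long non-coding RNA genes were chosen with earlier results of these data known. Named genes of the paraspeckle list are the 3 largest rises and 3 largest falls past the threshold in each comparison with DMSO. The genes most like RBM14 and NEAT1 are the 5 protein-coding genes of at least 5 CPM with the highest correlation. Promoter sequences are from RefSeq (GRCh38.p14), where RBM14 and RBM4 were matched and are shown, and transcript ends from GRCh38 by GENCODE 29. Neighbours are genes that start within 100 kb of the start of RBM14 or NEAT1, a narrower rule set after their values were seen, and some nearby genes are not reported here.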

Additional observations from a re-analysis of the deposited data

Results flagged for a closer look

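With dCeMM-2 and dCeMM-3, both given at 10 times their EC50, the effect against DMSO differed for 5 of the 9 genes in the edgeR test of the difference itself. The effect of dCeMM-2 minus that of dCeMM-3 (log2, TMM) was 2.54 for RBM14, 1.18 for SFPQ, 0.65 for PSPC1, 0.20 for NONO and -0.29 for MALAT1. Over all genes tested, 26.6% were higher with dCeMM-2 and 16.5% lower. On the spike-in scale the differences were 2.58 for RBM14, 1.21 for SFPQ and 0.69 for PSPC1, which were called, and 0.25 for NONO and -0.27 for MALAT1, which were not.

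The share of reads outside annotated exons, which entered no comparison, was above every DMSO library in all libraries of 4 groups. It is the percentage of reads given to no gene among these plus the reads counted in genes. It averaged 8.26% with dCeMM-1, 11.96% with dCeMM-2, 11.99% with dCeMM-4 and 11.6% with THZ531, against 7.30% with DMSO.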

How the results depend on the processing

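The spike-in scaling changed the most. It put 1 of the 9 genes past the threshold with dCeMM-1 and 4 with dCeMM-4, counts that include RBM14 and carry no test, and 3 for dCeMM-2 against dCeMM-3. It gave 628 genes called in all with dCeMM-1 and 3426 for dCeMM-2 against dCeMM-3, where TMM gave 4711 and 6488. Log2 fold changes that turned their sign under it were, with dCeMM-1, NONO at 0.045. With dCeMM-2 they were RBM14 at -0.27, NONO at -1.07, PSPC1 at -1.74, DAZAP1 at -1.02 and HNRNPK at -1.51. With dCeMM-3 they were NONO at -1.32, DAZAP1 at -1.02 and HNRNPK at -1.64. With dCeMM-4 they were SFPQ at -0.11, NONO at -0.13, DAZAP1 at -0.18 and HNRNPK at -0.21. With THZ531 they were RBM14 at -1.14, NONO at -1.25, PSPC1 at -1.54, DAZAP1 at -1.11 and HNRNPK at -1.69. Between compounds they were DAZAP1 at 0.0008 for dCeMM-2 against dCeMM-3, NEAT1 at -0.13, MALAT1 at -0.039, NONO at -0.94 and DAZAP1 at -0.84 for dCeMM-2 against dCeMM-4, and NEAT1 at -0.28, NONO at -1.19 and DAZAP1 at -0.84 for dCeMM-3 against dCeMM-4. On this scale the median gene was at -1.96 with dCeMM-3 but at 0.10 with dCeMM-1, where NONO lay near 0 on both scales. The cause of each turn was not tested.

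Without the filter on low counts NONO was at 0.0032 with dCeMM-1 and at -0.035 for dCeMM-3 against dCeMM-4, and PSPC1 at -0.033 with dCeMM-2. With THZ531, RBM4 was at 0.0112 and SFPQ at 0.0006 with DESeq2 size factors, at 0.0109 and 0.0010 with DESeq2, and at 0.0395 and 0.0314 in the fit of these 2 groups alone. Over single libraries left out, NONO with dCeMM-1 ranged between -0.019 and 0.0106 (above 0 without dCeMM-1 replicate 3), HNRNPK with THZ531 between -0.0196 and 0.19 (below 0 without THZ531 replicate 1), RBM4 between -0.17 and 0.0815 and DAZAP1 between -0.0847 and 0.0161 for dCeMM-2 against dCeMM-3. The log2 ratio of NEAT1 to MALAT1 with dCeMM-1 ranged between -0.14 and 0.12 (highest without DMSO replicate 2), and that of SFPQ to NONO with dCeMM-4 between -0.0018 and 0.0499. The cause was not tested. Levels per kb over all exon bases were 74.6 CPM for HNRNPK, 18.2 for RBM14 and 4.29 for RBM4 with DMSO, against 81.2, 20.4 and 6.42 over unique bases.

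The labels do not tell whether libraries of 1 number share more than that number. Deviations of such libraries correlated between -0.14 and 0.12 over 24 pairs, 9 of which were best with their own number. This check cannot show that nothing else is shared. The replicate block kept the direction and call of all 72 fold changes, with 11774 genes called in all under dCeMM-2, 12179 under dCeMM-3 and 11978 under THZ531. Counting depth limits the readthrough gene most, at 13 to 51 reads a library.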
